A study of Mus musculus with 10 samples.

Results

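The genes described here encode the general machinery of RNA splicing and the proteins that coat new transcripts. They were chosen by their symbols: the serine/arginine-rich splicing factors (Srsf), the heterogeneous nuclear ribonucleoproteins (Hnrnp), the small nuclear ribonucleoprotein polypeptides (Snrp) and the subunits of splicing factor 3 (Sf3a and Sf3b). Of 19961 genes with a named probe set, 50 were members, with 11 Srsf, 18 Hnrnp, 12 Snrp and 9 Sf3 genes. Hnrnpa3, Hnrnpf and Snrpert also have fitting symbols but had no probe set matched by accession and were not analysed here. All 10 samples were cells of papain-dissociated hippocampus of mice heterozygous for Sox1-GFP, a reporter that marks cells in which the neural stem cell factor Sox1 is active, and the cells had been sorted by flow cytometry. There were 4 samples of GFP-positive cells from old mice (1 year 9 months), 3 young GFP-positive samples (7, 5 and 4 months in the order of their replicate numbers) and 3 young GFP-negative samples (7, 7 and 4 months). The labels name no treatment, and GFP-negative cells of old mice were not analysed here. The titles call the samples biological replicates. Messenger RNA was measured on Affymetrix Mouse Gene 1.0 ST arrays, and values are log2 RMA values (Robust Multichip Average).

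Splicing removes introns from transcripts, and its catalyst, the spliceosome, is built from small nuclear RNAs and proteins. In this background, Sm proteins (most Snrp genes) form a ring around the U1, U2, U4 and U5 RNAs, and the SF3a and SF3b complexes belong to the U2 particle that holds the branch point of the intron. SR proteins (Srsf genes) mostly bind exons and recruit the spliceosome, while hnRNP proteins package the transcript and often oppose exon use. Cells of the brain use many alternative exons, and the balance of these proteins is known to differ between neurons, glia and progenitors.

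Several facts of the arrays bear on all values. Sox1 had 7.07, 7.24 and 7.28 in the GFP-negative, 7.56, 7.55 and 7.32 in the young GFP-positive and 7.53, 7.61, 7.64 and 7.50 in the old samples, a log2 difference of 0.28 between young fractions that missed the threshold in limma (adjusted p = 0.123). All 10 astrocyte and stem cell markers were higher in the young GFP-positive than in the GFP-negative samples by limma, at a mean level from 10.60 to 11.00 against 7.46 to 8.39. Lower in the GFP-positive cells were 8 of 8 microglia markers (mean level 6.30 to 7.26 against 9.74 to 10.27), 7 of 7 oligodendrocyte markers (8.05 to 8.75 against 10.64 to 11.16) and 6 of 6 endothelial markers (5.78 to 6.49 against 7.63 to 9.47). Neuron and mural markers were mixed. Of 8 neuron markers 1 was higher and 2 were lower, at mean levels of 6.9 to 7.5 against 7.1 to 8.3, with 6.6 to 7.5 in old samples. Of 4 mural markers 1 was higher and 3 were lower. Of 8 dissociation response genes, 4 were lower in the same comparison (8.32 to 9.51 against 9.89 to 10.15). Choroid plexus and ependymal markers were high in both replicate 1 samples of the young mice, with mean levels of 8.06 and 8.19 against 5.68 to 6.38 in the other 8 samples. Old replicate 3 had a value of 11.90 for Xist, which silences an X chromosome in females, and 5.32 for the Y-linked gene Ddx3y, while the other 9 samples lay between 4.95 and 5.69 and between 9.15 and 9.83, and the labels used here give no sex.

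A bulk sample cannot tell fewer cells of a type from less RNA per cell, so each difference below is one between sorted populations. Differences also depended on how bright a probe set was. The SD of values over genes was 1.70 to 1.80 in GFP-negative, 1.62 to 1.71 in young GFP-positive and 1.54 to 1.68 in old samples, and bright genes tended to lie lower in the arrays with the narrower spread. The median log2 difference of all genes was 0.098 between young fractions and 0.053 between ages, but that of the brightest 10% of genes was -0.062 and -0.073. Of the 50 members, 32 were in that brightest 10%, and the members are therefore set beside it as well as beside all genes.

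**Figure D1:**
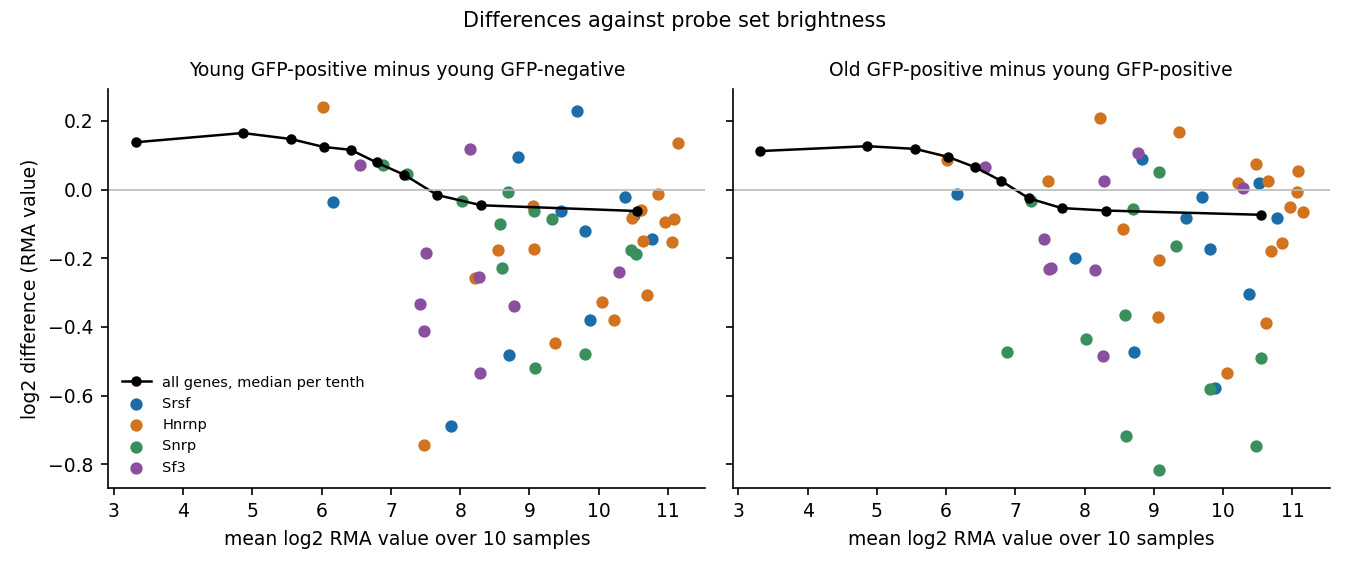
Log2 differences of the 50 members (points, coloured by family) against their mean log2 RMA value over 10 samples, for young GFP-positive minus GFP-negative cells (left) and old minus young GFP-positive cells (right). The black line joins the medians of all genes in 10 bins of equal size, drawn at the middle of each bin's range, and drops from 0.14 to -0.062 on the left and from 0.11 to -0.073 on the right.

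Between the sorted fractions of the young hippocampus, 47 of the 50 splicing genes did not pass the test. Here the GFP-negative mean was subtracted from the GFP-positive mean on the log2 scale, and a gene passed the test at a Benjamini-Hochberg adjusted p under 0.05 in limma, adjusted over all genes. Of the 50 members 3 were lower in GFP-positive cells, Srsf9, Hnrnph2 and Sf3b3, and 0 were higher, with 7 members at an unadjusted p under 0.05, against 30.4% of all genes. Over all genes 17.0% passed, 7.68% higher and 9.30% lower, and in the brightest 10% of genes 18.1% were higher and 13% lower. The members' differences ran from -0.74 to 0.24 with a median of -0.15, and 42 of 50 were below 0, against 55.9% of the brightest 10% of genes. The values of both fractions did not overlap for 13 members that were lower in GFP-positive cells and for 1 that was higher. Over all genes groups did not overlap for 38.9% (3003 genes lower and 4764 higher), and in the brightest 10% of genes 26.9% were lower and 22.8% higher, so that the count of lower members was close to that of genes of like brightness. Each of the 3 calls was lost when certain single samples were left out, as given for each gene below, and 0 of them were left without both young replicate 1 samples. Normalizing the values again by quantiles gave a median of -0.065 for the members and 0.050 for all genes and 1 member past the test. Microglia, oligodendrocyte and endothelial markers and 4 dissociation genes were lower in the same samples, as given above, and their part in these differences was not tested.

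Between old and young GFP-positive cells 0 of 50 members passed, and 9 had an unadjusted p under 0.05, all of them lower in old cells, against 10.2% of all genes in either direction. Over all genes 0.0150% passed in limma, which were 3 genes, all lower in old cells. They were Atf3 (log2 difference old minus young -1.21, adjusted p = 0.0368), Svbp (-0.99, adjusted p = 0.0368) and Prmt1 (-0.89, adjusted p = 0.0440), an enzyme that methylates arginines, including those of hnRNP proteins. Prmt1 was no member and was singled out after its values were seen. The count of all genes past this test was 0 after repeated quantile normalization and with trend and robust eBayes. It was also 0 with only the groups compared and with a replicate block, so that none of these calls held there. With the mean of all probe sets it was 5 and with array weights 20. The members had a median of -0.13, with 35 of 50 below 0 against 62.3% of the brightest 10% of genes. Old and young values did not overlap for 7 members that were lower in old cells and 0 that were higher, against 4.05% and 6.85% of all genes and 12.3% and 4.46% of the brightest 10%. The family medians were -0.45 for Snrp, -0.14 for Sf3, -0.083 for Srsf and -0.029 for Hnrnp genes, so that the Snrp genes lay farthest below. The sign of the Hnrnp median was not stable, at 0.032 after repeated quantile normalization, 0.026 after cyclic loess normalization and 0.0079 without replicate 3 of the young GFP-positive cells. The Sf3 median was -0.015 without old replicate 3 and -0.031 without replicate 2 of the young GFP-positive cells. Both comparisons share the young GFP-positive samples.

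**Figure D2:**
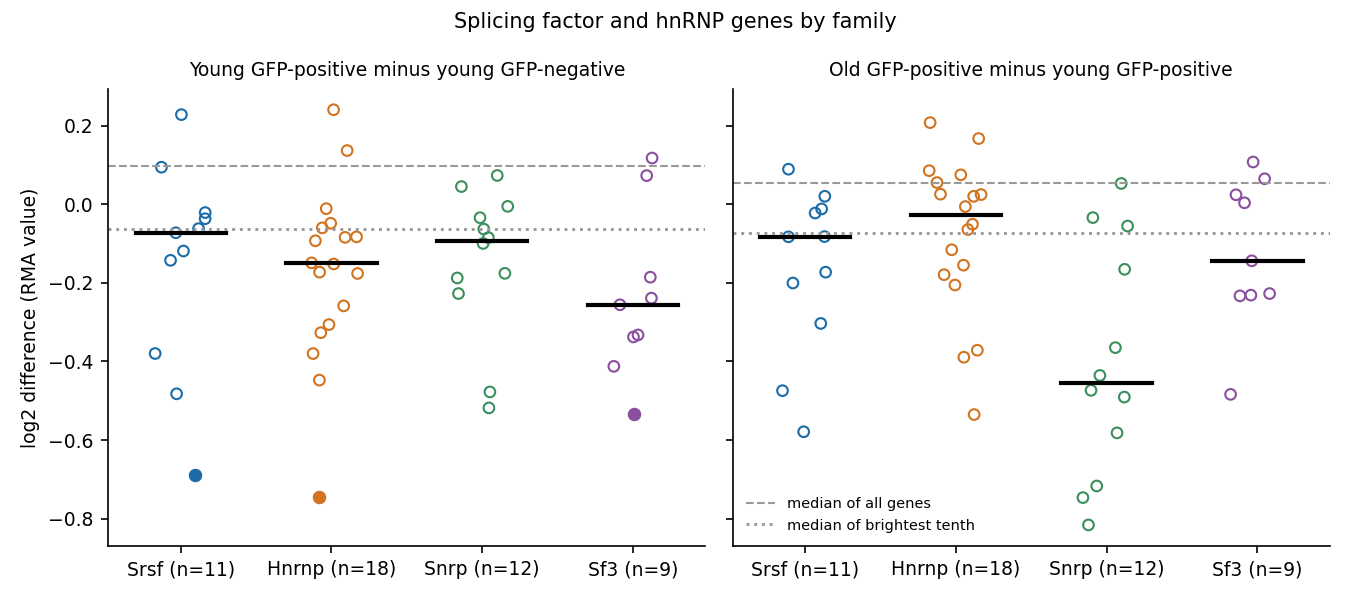
Log2 differences of the members by family (1 point per gene, bars are family medians, filled points passed the test), with dashed and dotted lines at the medians of all genes and of the brightest 10% of genes. On the left 3 genes passed, 1 each of Srsf, Hnrnp and Sf3, and on the right 0 passed while the Snrp median lay at -0.45.

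**Figure D3:**
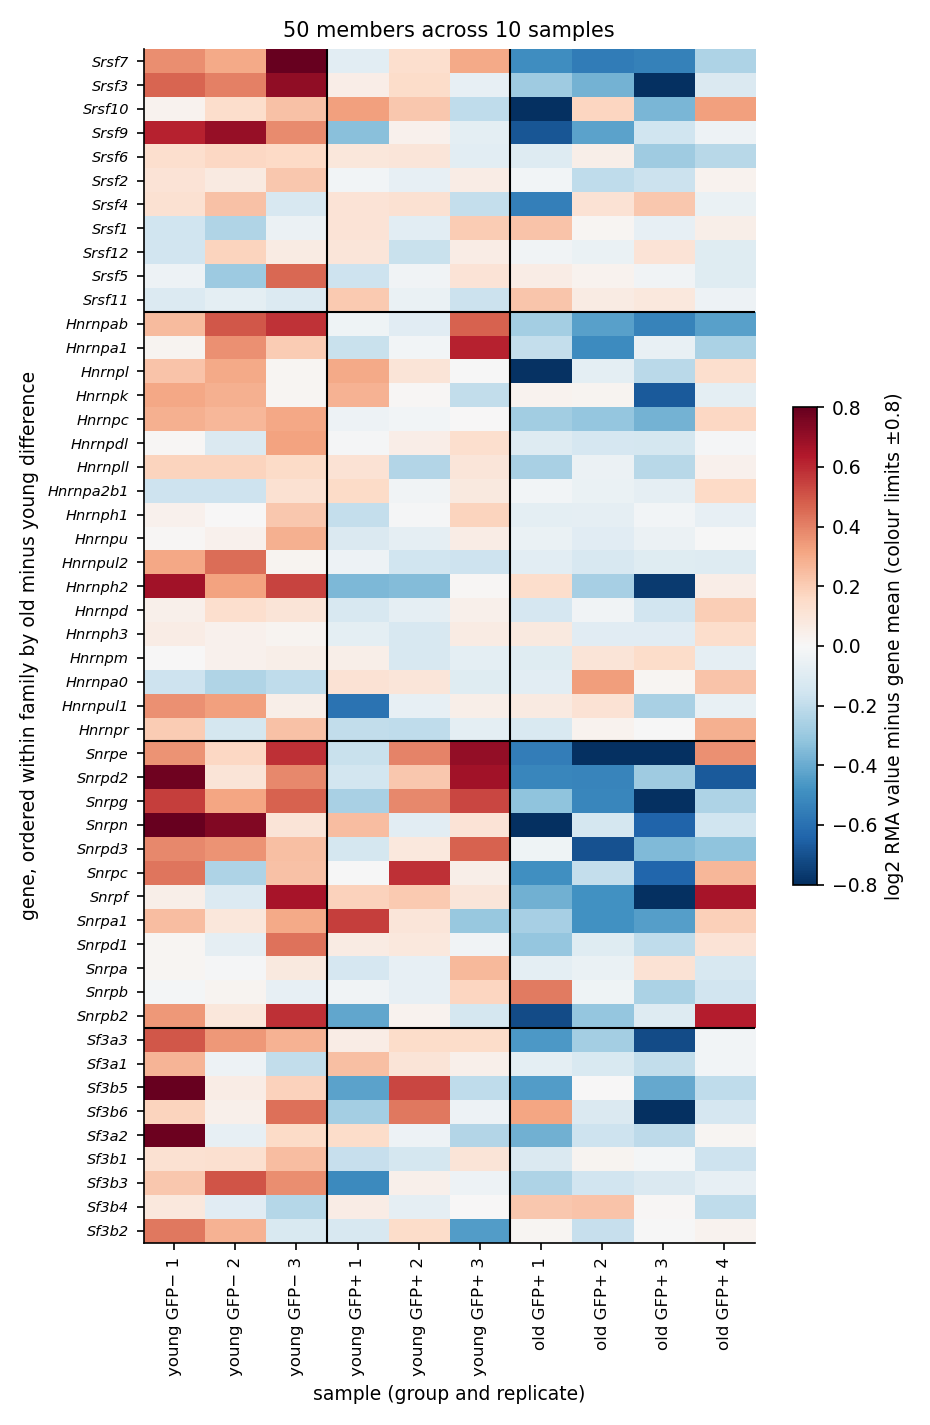
Values of the 50 members (rows) in each of 10 samples (columns), as log2 RMA value minus the gene's mean over the samples, with colours limited to 0.8 in each direction. GFP-negative samples stand at the left, and in the Snrp block old replicate 4 differs from the other 3 old samples.

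Promoters of the members had some short sequences in common. RefSeq (GRCm38.p6) gave a window of 250 bases before to 50 after the start for 44 of the 50 members, and the first listed window of a gene was searched on both strands. The letters CCGGAAG, a core that ETS factors bind, were in 15 of 44 windows (34.1%), against 12.6% of the windows of all genes tested and 9.12% of all 27025 windows. By family they were in 6 of 7 Sf3, 4 of 10 Snrp, 4 of 11 Srsf and 1 of 16 Hnrnp windows. CCAAT, the box bound by NF-Y, was in 21 of 44 windows (47.7%, against 38.6% of genes tested). By family it was in 11 of 16 Hnrnp (68.8%), 4 of 11 Srsf (36.4%), 4 of 10 Snrp (40%) and 2 of 7 Sf3 windows (28.6%). GGGCGG, the GC box of Sp factors, was in 31 of 44 (70.5%, against 50.2%). It was in 10 of 11 Srsf, 12 of 16 Hnrnp, 5 of 10 Snrp and 4 of 7 Sf3 windows. TCTCGCGA, an element of some housekeeping promoters, was in 4 of 44 (9.09%, against 1.65%). No searched motif contains another. The median GC share of a window was 60.2% for members and 57.7% for genes tested. TATAAA was in 6 of 44 (13.6%, against 12.5%), CACGTG in 4 (9.09%, against 8.46%), TGACGTCA in 2 (4.55%, against 2.52%) and GCATGCGC, the core bound by NRF1, in 1 (2.27%, against 3.89%). A match describes the letters and is not a measured site. The Sf3 windows with CCGGAAG or its reverse complement are shown because 6 of 7 genes of this family carry it. Each line gives 60 bases of GRCm38.p6 around the first match, 5′ to 3′ on the gene's strand, with every match in the line in capitals.
Sf3a1, chr11:4160320-4160379, plus strand: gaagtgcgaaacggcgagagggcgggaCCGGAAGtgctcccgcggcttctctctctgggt
Sf3a2, chr10:80798632-80798691, plus strand: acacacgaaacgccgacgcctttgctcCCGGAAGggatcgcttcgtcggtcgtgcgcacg
Sf3a3, chr4:124714744-124714803, plus strand: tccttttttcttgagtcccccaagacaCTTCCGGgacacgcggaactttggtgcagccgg
Sf3b2, chr19:5295436-5295495, minus strand: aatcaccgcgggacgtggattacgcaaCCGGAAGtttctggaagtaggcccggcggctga
Sf3b3, chr8:110846994-110847053, minus strand: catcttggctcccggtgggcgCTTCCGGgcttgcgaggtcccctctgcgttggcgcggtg
Sf3b6, chr12:4817496-4817555, plus strand: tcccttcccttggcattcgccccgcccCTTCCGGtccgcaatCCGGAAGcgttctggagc

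The other 2 members that passed the test between sorted fractions are shown as well. The last 200 bases of each window are printed, 5′ to 3′, with the letters of the GC box and the CCAAT box, on either strand, in capitals. Of the marked motifs, Srsf9 had only GC boxes in this stretch and Hnrnph2 a pair of CCAAT boxes and 1 GC box. Hnrnph2 also held the letters CACGTG there, which are not marked.
Srsf9, chr5:115327027-115327226, plus strand: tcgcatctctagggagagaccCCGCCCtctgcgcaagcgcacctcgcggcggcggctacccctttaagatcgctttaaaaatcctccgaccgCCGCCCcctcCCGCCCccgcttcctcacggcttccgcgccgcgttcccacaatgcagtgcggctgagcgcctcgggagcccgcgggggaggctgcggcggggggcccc
Hnrnph2, chrX:134601029-134601228, plus strand: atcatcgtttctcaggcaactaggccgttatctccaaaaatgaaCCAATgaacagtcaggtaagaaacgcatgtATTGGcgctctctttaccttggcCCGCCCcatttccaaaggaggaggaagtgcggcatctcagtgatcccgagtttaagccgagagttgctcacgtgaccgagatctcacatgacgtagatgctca

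Among the 11 SR protein genes, Srsf9 was 1.61-fold lower in young GFP-positive than in GFP-negative cells and the other 10 did not pass. Srsf9, a small SR protein, had 8.48, 8.56 and 8.24 in the GFP-negative samples, 7.53, 7.90 and 7.79 in the young GFP-positive samples and 7.18, 7.44, 7.71 and 7.82 in the old samples. Every GFP-negative value lay above every GFP-positive value of either age. Its log2 difference between young fractions was -0.69 ± 0.18 (SE; limma, adjusted p = 0.0195), and that between ages -0.20 (adjusted p = 0.663). The first call was lost without replicate 1 of the young GFP-positive cells (-0.59, adjusted p = 0.0816), GFP-negative replicate 1 (adjusted p = 0.0662) or GFP-negative replicate 2 (adjusted p = 0.0804).

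Srsf3 and Srsf7, related SR proteins that also help export messenger RNA, had their highest mean in GFP-negative and their lowest in old cells, without passing either test. Srsf3 had 9.18, 9.12 and 9.42 in GFP-negative, 8.76, 8.85 and 8.65 in young GFP-positive and 8.43, 8.33, 7.76 and 8.60 in old GFP-positive samples, with no overlap between any of the groups. Its log2 differences were -0.48 ± 0.19 (SE) between fractions (limma, adjusted p = 0.113) and -0.47 ± 0.18 between ages (adjusted p = 0.423). The former passed without old replicate 3 (adjusted p = 0.0241) and with only the young groups in the fit (adjusted p = 0.0398). It also passed once age was a covariate (adjusted p = 0.0420), a fit that here and below left out the old samples too. Srsf7 had 10.25, 10.18 and 10.69 in GFP-negative, 9.79, 10.01 and 10.18 in young GFP-positive and 9.38, 9.32, 9.34 and 9.63 in old samples. Old and young GFP-positive values did not overlap, while those of the young fractions touched at 10.18. The differences of Srsf7 were -0.38 between fractions (adjusted p = 0.138, or 0.0261 once age was a covariate) and -0.58 ± 0.15 (SE) between ages (unadjusted p = 0.00269, limma adjusted p = 0.263).

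Srsf1, the founding SR protein, and Srsf11 had the 2 positive differences of the family between fractions, and neither passed. Values of Srsf1 were 9.53, 9.45 and 9.64 in GFP-negative, 9.80, 9.60 and 9.89 in young GFP-positive and 9.91, 9.70, 9.62 and 9.73 in old samples, a difference between fractions of 0.23 (limma, adjusted p = 0.232). Srsf11, known for its part in including neuronal microexons, had 8.72, 8.75 and 8.72, 9.04, 8.78 and 8.66 and 9.05, 8.90, 8.92 and 8.79 in the same order of groups. Its differences were 0.094 between fractions and 0.089 between ages (limma adjusted p = 0.620 for the former), and the groups overlapped. Srsf10, which represses splicing when it loses its phosphates, had 10.40, 10.52 and 10.61 in GFP-negative and 10.70, 10.59 and 10.18 in young GFP-positive samples but 9.49, 10.55, 10.01 and 10.70 in old ones, a difference between ages of -0.30 (adjusted p = 0.668). Its old values spread over a wider range than both young groups together. Srsf5 had 10.47, 10.22 and 10.97 in GFP-negative, 10.34, 10.48 and 10.62 in young GFP-positive and 10.57, 10.54, 10.48 and 10.42 in old samples, with a difference of 0.02 between ages (adjusted p = 0.969). For Srsf2, a marker of nuclear speckles, Srsf4, Srsf6 and Srsf12 the differences ran from -0.14 to -0.037 between fractions and from -0.17 to -0.012 between ages, with limma adjusted p of 0.390 or more.

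**Figure D4:**
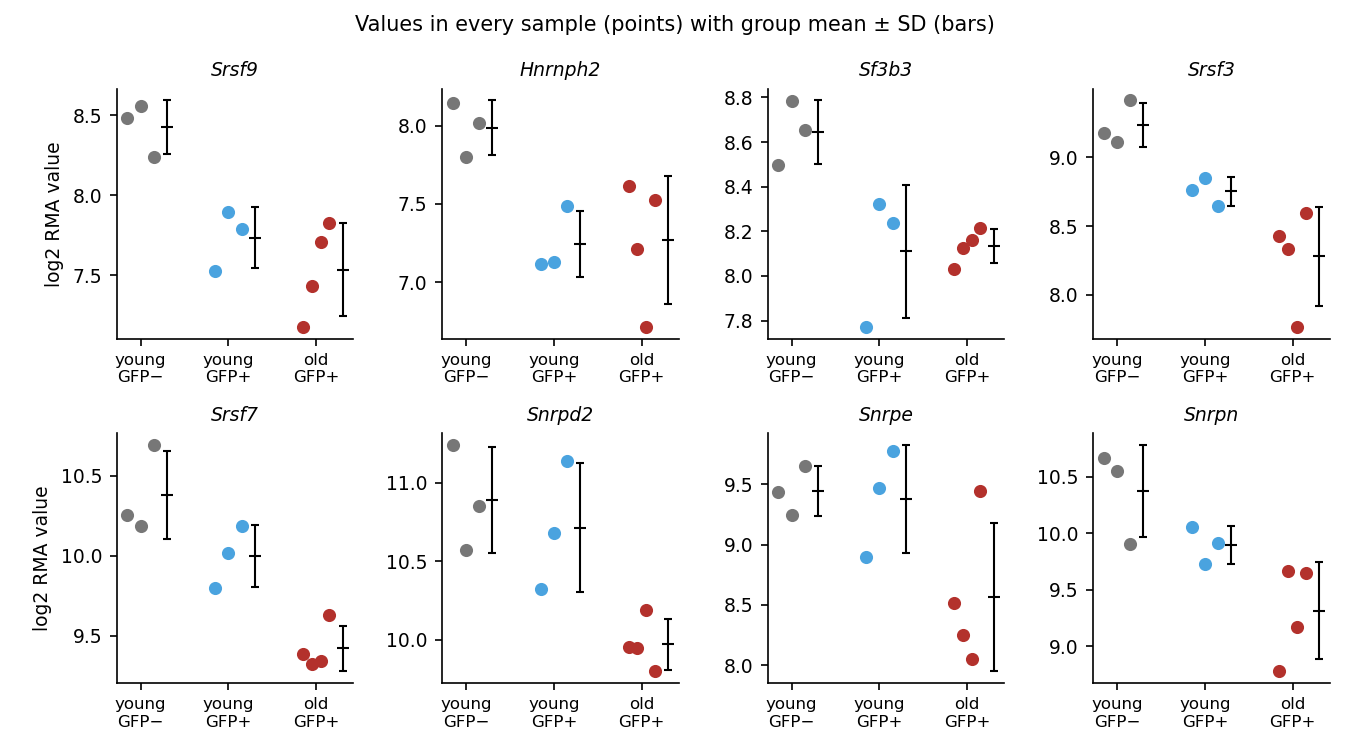
Log2 RMA values of 8 members in each sample (points, in order of replicate number from left to right within a group) with the group mean and SD beside them, for 3 GFP-negative, 3 young GFP-positive and 4 old GFP-positive samples. Axes do not start at 0 and differ between genes. GFP-negative values of Srsf9, Hnrnph2, Sf3b3 and Srsf3 lie above all young GFP-positive ones, and the old values of Srsf7 and Snrpd2 lie below all young ones.

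Of the 18 hnRNP genes, Hnrnph2 was 1.68-fold lower in young GFP-positive cells and the other 17 did not pass. Hnrnph2, an X-linked gene for a protein that binds runs of G, had 8.15, 7.80 and 8.02 in GFP-negative, 7.12, 7.13 and 7.48 in young GFP-positive and 7.62, 7.21, 6.71 and 7.53 in old samples. GFP-negative values lay above all others, and the lowest value was that of old replicate 3, the sample with high Xist. The difference between fractions was -0.74 ± 0.22 (SE; limma, adjusted p = 0.0372) and that between ages 0.024 (adjusted p = 0.971). Its call was lost without old replicate 2 (adjusted p = 0.0529), without replicate 1 or 2 of the young GFP-positive cells (adjusted p = 0.116 and 0.108) and without GFP-negative replicate 1, 2 or 3 (adjusted p = 0.130, 0.0553 and 0.0755). It was also lost after repeated quantile normalization (adjusted p = 0.102). Its relatives Hnrnph1 and Hnrnph3 had differences of -0.093 and -0.085 between fractions (adjusted p = 0.610 and 0.619).

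Hnrnpul1 and Hnrnpul2, which resemble the scaffold protein hnRNP U, came next. Hnrnpul2 had 10.52, 10.66 and 10.24 in GFP-negative samples, 10.18, 10.06 and 10.05 in young GFP-positive samples and 10.13, 10.09, 10.12 and 10.11 in old ones. Fractions did not overlap, and the old values were close together. Its difference of -0.38 ± 0.12 (SE) just missed the threshold (limma, adjusted p = 0.0532) and passed with array weights (adjusted p = 0.00407) and without GFP-negative replicate 3 (-0.50, adjusted p = 0.0123). Hnrnpul1 had 9.73, 9.70 and 9.41, 8.78, 9.31 and 9.42 and 9.44, 9.48, 9.11 and 9.31 in GFP-negative, young GFP-positive and old samples, with young replicate 1 the lowest of all. The differences of Hnrnpul1 were -0.45 between fractions and 0.17 between ages (adjusted p = 0.113 and 0.710).

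The largest negative differences between ages in this family were those of Hnrnpab, Hnrnpa1 and Hnrnpl. Hnrnpab, a protein of the A/B type that binds transcripts and single-stranded DNA, had 9.77, 9.62, 9.51 and 9.61 in old, 10.01, 9.96 and 10.52 in young GFP-positive and 10.30, 10.55 and 10.63 in GFP-negative samples. Every old value lay below every young one, a difference of -0.54 ± 0.15 (SE; unadjusted p = 0.00435, limma adjusted p = 0.294). Hnrnpa1, an exon repressor whose transcript has near-identical processed copies in the genome that probes may also read, had 10.42, 10.11, 10.55 and 10.36 in old, 10.43, 10.59 and 11.23 in young GFP-positive and 10.64, 10.98 and 10.82 in GFP-negative samples. The old values overlapped those of young replicate 1, and the difference was -0.39 (adjusted p = 0.503). Hnrnpl, which binds CA repeats, had 8.26, 8.98, 8.84 and 9.19 in old, 9.36, 9.16 and 9.05 in young GFP-positive and 9.29, 9.36 and 9.07 in GFP-negative samples, and old replicate 1 was the lowest. Its difference between ages was -0.37 (adjusted p = 0.534).

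Hnrnpr and Hnrnpa0 had positive differences between ages, and Hnrnpa0 and Hnrnpa2b1 between fractions, none of them past a test. Hnrnpr had 8.09, 8.24, 8.21 and 8.50 in old, 8.02, 8.01 and 8.14 in young GFP-positive and 8.42, 8.07 and 8.45 in GFP-negative samples. Its differences were 0.21 between ages and -0.26 between fractions (limma, adjusted p = 0.589 and 0.236). Hnrnpa0 was the 1 member of the 50 whose young GFP-positive values (6.13, 6.11 and 5.92) all lay above the GFP-negative ones (5.85, 5.77 and 5.82), and its old values were 5.93, 6.35, 6.03 and 6.24. Its differences were 0.24 between fractions and 0.085 between ages (adjusted p = 0.234 and 0.793). Hnrnpa2b1, which also guides RNA transport in oligodendrocytes and neurons, had 10.98, 10.98 and 11.27 in GFP-negative, 11.30, 11.12 and 11.22 in young GFP-positive and 11.12, 11.10, 11.07 and 11.30 in old samples. Its differences were 0.14 between fractions and -0.065 between ages (limma, adjusted p = 0.461 and 0.834). The genes left were Hnrnpc, Hnrnpd, Hnrnpdl, Hnrnpk, Hnrnpll, Hnrnpm and Hnrnpu. Of these, Hnrnpc, which binds runs of U, was farthest from 0 between fractions (-0.31, limma adjusted p = 0.167) and Hnrnpdl nearest to it (-0.012). Between ages they ran from -0.21 for Hnrnpk, which binds runs of C, to 0.075 for Hnrnpm.

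The 12 Snrp genes had the lowest family median between ages, but not between fractions. Of these 12, 11 had negative differences between ages with a median of -0.45, and 5 had an unadjusted p under 0.05 (10.2% of all genes) while 0 passed the adjusted test in limma. Between fractions the family median was -0.093 (0.0090 after repeated quantile normalization and 0.024 without both young replicate 1 samples), beside -0.073 for Srsf genes. There 10 of the 12 differences were negative, 0 genes passed and 0 had an unadjusted p under 0.05 (30.4% of all genes). Snrp genes also varied most within groups, with a median SD of 0.31 against 0.14 for Hnrnp, 0.20 for Srsf and Sf3 and 0.19 for all genes. After subtracting each gene's mean, the family median was -0.35, -0.40, -0.40 and -0.0096 in old replicates 1 to 4, -0.081, 0.092 and 0.14 in the young GFP-positive samples and 0.36, 0.092 and 0.35 in the GFP-negative ones. Old replicate 4 thus lay inside the range of the young GFP-positive samples and the other 3 old samples below it. Without old replicate 4 the median difference between ages was -0.58, without old replicate 3 it was -0.33, and leaving out each of the other samples gave values between these. It was -0.39 after cyclic loess normalization, which takes out the dependence on brightness and was added after the data were seen, and -0.39 after a repeated quantile normalization. Beside it, 4 of 4 immature neuron markers had negative differences between ages with 0 past the test, at mean levels of 5.97 to 6.27 in old cells and 6.09, 6.30 and 8.26 in young ones. Of 8 dissociation response genes, 8 were lower in old cells in value and 1 passed, at mean levels of 7.57 to 8.34 against 8.32 to 9.51. All 7 oligodendrocyte markers had negative differences between ages with 0 past the test, at mean levels of 7.92 to 8.02 in old and 8.05 to 8.75 in young cells. The part of these genes in the Snrp values was not tested.

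Sm ring proteins had the largest differences between ages. Snrpe had 8.52, 8.25, 8.05 and 9.44 in old, 8.89, 9.47 and 9.78 in young GFP-positive and 9.43, 9.24 and 9.65 in GFP-negative samples. Old replicate 4 lay within the young values and the other 3 lay below them, a difference between ages of -0.82 ± 0.30 (SE; unadjusted p = 0.0214, limma adjusted p = 0.421). Snrpd2 had 9.95, 9.94, 10.19 and 9.80 in old, 10.32, 10.68 and 11.14 in young GFP-positive and 11.25, 10.57 and 10.85 in GFP-negative samples. Here all 4 old values were below all young ones, with a difference of -0.75 ± 0.20 (SE; unadjusted p = 0.00360, adjusted p = 0.283). For Snrpg the values were 8.28, 8.08, 7.71 and 8.35 in old, 8.34, 8.98 and 9.14 in young GFP-positive and 9.16, 8.91 and 9.07 in GFP-negative samples, a difference of -0.72 ± 0.20 (unadjusted p = 0.00458, adjusted p = 0.294). Young replicate 1 was at the level of old replicate 4, so the groups overlapped. Of the rest of the ring, Snrpd3 (-0.49, adjusted p = 0.405) and Snrpf (-0.44, adjusted p = 0.621) had negative differences, Snrpd1 had -0.17 and Snrpb -0.034. Snrpb had 7.21, 7.25 and 7.16, 7.20, 7.16 and 7.40 and 7.64, 7.19, 6.97 and 7.08 in GFP-negative, young GFP-positive and old samples, with a difference of 0.045 between fractions.

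Snrpn, the imprinted relative of Snrpb that is made mainly in brain and heart, had its highest mean in GFP-negative and its lowest in old GFP-positive cells. Its values were 10.67, 10.55 and 9.91, 10.05, 9.72 and 9.91 and 8.78, 9.66, 9.17 and 9.65 in that order, and every old value lay below every young GFP-positive one. The differences were -0.48 between fractions (adjusted p = 0.229) and -0.58 ± 0.24 (SE) between ages (unadjusted p = 0.0322, limma adjusted p = 0.453). Snrpn had the same values as Snurf, with which it shares a transcript, and cannot be told apart from it.

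Proteins specific to the U1 and U2 particles did not follow the Sm ring throughout. Snrpb2, of the U2 particle, had 8.36, 8.76, 8.97 and 9.70 in old samples, 8.66, 9.10 and 8.93 in young GFP-positive samples and 9.42, 9.17 and 9.66 in GFP-negative ones. Old samples spanned more than the whole range of both young groups, and the difference between ages was 0.053 (limma, adjusted p = 0.947), or -0.20 without old replicate 4. Between fractions Snrpb2 had -0.52 without overlap (adjusted p = 0.236), a difference that passed only with age as a covariate (adjusted p = 0.0304). Snrpa1, also of the U2 particle, had a difference between ages of -0.36 (adjusted p = 0.555). Of the U1 proteins, Snrpc had 6.39, 6.69, 6.25 and 7.15 in old, 6.88, 7.47 and 6.93 in young GFP-positive and 7.31, 6.63 and 7.12 in GFP-negative samples, with -0.47 between ages and 0.073 between fractions (adjusted p = 0.522 and 0.861). Snrpa had -0.056 and -0.0057.

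Among the 9 SF3 genes, Sf3b3 was 1.45-fold lower in young GFP-positive than in GFP-negative cells, and the family median between fractions was -0.26. That median was -0.16 after repeated quantile normalization, -0.16 without both young replicate 1 samples and -0.14 with array weights, where the Hnrnp median of -0.16 lay below it. Sf3b3, a large propeller-shaped subunit of SF3b, had 8.50, 8.78 and 8.65 in GFP-negative, 7.77, 8.32 and 8.24 in young GFP-positive and 8.03, 8.13, 8.16 and 8.22 in old samples. All 7 GFP-positive values lay below the GFP-negative ones, and young replicate 1 was the lowest. Its difference between fractions was -0.53 ± 0.15 (SE; limma, adjusted p = 0.0311), and that between ages 0.024 (adjusted p = 0.955). The call was lost without replicate 1 of the young GFP-positive cells (-0.36, adjusted p = 0.109), GFP-negative replicate 2 (adjusted p = 0.120) or GFP-negative replicate 3 (adjusted p = 0.0626). It was also lost after repeated quantile normalization (adjusted p = 0.0970), with only the young groups in the fit (0.0767), with age as covariate (0.0592) and after cyclic loess normalization (0.0508).

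The other SF3 genes did not pass. Sf3b5 had 8.38, 7.54 and 7.66 in GFP-negative, 7.05, 8.02 and 7.28 in young GFP-positive and 7.04, 7.49, 7.08 and 7.28 in old samples, with differences of -0.41 and -0.23 and values that overlapped in each comparison. Sf3b2 had 9.20, 9.06 and 8.65 in GFP-negative, 8.65, 8.92 and 8.33 in young GFP-positive and 8.79, 8.59, 8.77 and 8.80 in old samples, a difference between fractions of -0.34 (limma, adjusted p = 0.217) and between ages of 0.11 (adjusted p = 0.805). Sf3a3, a subunit of the SF3a heterotrimer, had 8.77, 8.62 and 8.55 in GFP-negative, 8.33, 8.42 and 8.42 in young GFP-positive and 7.81, 8.00045, 7.55 and 8.25 in old samples. As with Srsf3, none of its 3 groups overlapped, and its differences were -0.26 between fractions (adjusted p = 0.304) and -0.48 ± 0.15 (SE) between ages (unadjusted p = 0.00822, adjusted p = 0.338). Sf3a1 had 8.42, 8.11 and 7.95, 8.39, 8.25 and 8.19 and 8.07, 8.02, 7.95 and 8.13 in GFP-negative, young GFP-positive and old samples. Its old values were all below the young GFP-positive ones, with -0.23 between ages (adjusted p = 0.538) and 0.12 between fractions. Sf3b4 had 6.64, 6.46 and 6.33 in GFP-negative, 6.61, 6.48 and 6.56 in young GFP-positive and 6.77, 6.78, 6.56 and 6.35 in old samples, differences of 0.073 and 0.065. Sf3b1, the subunit that clamps the branch point and is often mutated in blood cancers, had -0.24 between fractions without overlap (adjusted p = 0.188) and 0.0034 between ages. Sf3b6, which touches the branch point adenosine, had -0.19 and -0.23, and Sf3a2 had -0.33 and -0.14.

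Several members were read by more than 1 probe set, which target different RefSeq transcripts of the gene. There were 69 probe sets for the 50 members, with several for 12 of them. The transcripts of Hnrnpc differed most, with differences between fractions of -0.31 in the probe set used and -0.44 in the one farthest from it. Those of Hnrnpab gave -0.54 and -0.53 between ages, and those of Snrpn -0.58 and -0.51. For Srsf1 and Srsf5 the probe sets of all listed transcripts had identical values, so that transcript choice could not be read from them. Probe set values of different genes depend on their probes and were not compared as levels.

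Other spliceosome genes were mixed between the young fractions, and 5 tissue-specific regulators passed. Over all genes 17.0% passed this test, 7.68% higher and 9.30% lower, and the count of each list stands beside these shares. Of 27 tissue-specific splicing regulators 5 were lower in GFP-positive cells and 0 higher (median -0.20), led by Ptbp3, a PTB relative known from blood cells, at -1.69 ± 0.15 (SE; 8.67 ± 0.15 in GFP-negative and 6.98 ± 0.17 in young GFP-positive samples, SD, n = 3; limma, adjusted p = 1.64e-05). Khdrbs2 (-1.48, adjusted p = 0.000146), a STAR-family RNA-binding protein of neurons, and Mbnl2 (-1.17, adjusted p = 0.000719), a muscleblind protein, followed, and the other 2 were Mbnl1 and Elavl3. Of 9 kinases of SR proteins only Srpk3 passed, with a log2 difference of -1.16 (adjusted p = 0.000796). In the list of exon junction and SR-related proteins Son (0.57, adjusted p = 0.00273), a scaffold of nuclear speckles, and Pnn (0.45, adjusted p = 0.00941) were higher and Eif4a3 (-0.55, adjusted p = 0.0488), the core helicase of the exon junction complex, was lower, among 16 measured. Of 19 partners of U1 and U2, Snrnp70 (0.49, adjusted p = 0.0300), which binds U1 RNA directly, and Luc7l3 (0.37, adjusted p = 0.0280) were higher. Dhx35 (0.79) was higher and Rbm22 (-0.58) lower among 22 Prp19 complex and step factors, and Gemin8 (0.77) was higher among 14 SMN complex and Sm assembly genes.

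Of these calls, those of Ptbp3, Khdrbs2, Mbnl2, Srpk3, Son and Pnn held when any single sample was left out, and that of Pnn was lost without both young replicate 1 samples (limma, adjusted p = 0.0828). The calls of Mbnl1 and Elavl3 were not recomputed without single samples. The call of Dhx35 was lost without replicate 1 of the young GFP-positive cells (limma, adjusted p = 0.0584), without both young replicate 1 samples (0.148) and with age as covariate (0.0723). Snrnp70 lost its call without replicate 1 or 3 of the young GFP-positive cells (adjusted p = 0.119 and 0.0813) or GFP-negative replicate 2 or 3 (adjusted p = 0.112 and 0.0749). Luc7l3 lost it without replicate 1 or 3 of the young GFP-positive cells (adjusted p = 0.0981 and 0.0820) or GFP-negative replicate 1 or 2 (adjusted p = 0.0873 and 0.107). Rbm22 lost it without the same GFP-positive replicates (adjusted p = 0.105 and 0.0517) or GFP-negative replicate 2 or 3 (adjusted p = 0.0612 and 0.0776). Eif4a3 held only without old replicate 1 or 3, with adjusted p up to 0.145 in the other 8 omissions. Gemin8 held only without old replicate 2 or young GFP-positive replicate 2 or 3, with adjusted p up to 0.129 in the other 7. Without both young replicate 1 samples Snrnp70, Luc7l3, Rbm22, Eif4a3 and Gemin8 did not pass either (limma, adjusted p = 0.0992, 0.218, 0.125, 0.267 and 0.140). With only the young groups in the fit Snrnp70, Luc7l3, Rbm22 and Gemin8 did not pass (adjusted p = 0.0582, 0.0608, 0.0551 and 0.0791), with age as covariate Snrnp70 and Luc7l3 (0.0578 and 0.0865), and after repeated quantile normalization Rbm22, Eif4a3 and Gemin8 (0.0766, 0.108 and 0.0715). After cyclic loess normalization Eif4a3 and Gemin8 did not pass (0.0600 and 0.0785), nor did Eif4a3 with trend and robust eBayes (0.0567).

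The 4 lists without a call between fractions were those of the U5, U4/U6 and tri-snRNP proteins (16 measured), LSm ring proteins (9), minor spliceosome proteins (9) and other RNA-binding proteins of hnRNP particles (27). Their smallest p belonged to Prpf38a (-0.46, limma adjusted p = 0.0609), Lsm5 (-0.33, 0.158), Rnpc3 (0.56, 0.113) and Matr3 (-0.35, 0.0862). Prpf38a passed without old replicate 4 (adjusted p = 0.0462) or young GFP-positive replicate 3 (adjusted p = 0.0436), and Rnpc3 without GFP-negative replicate 3 (adjusted p = 0.0339). With array weights Prpf38a, Rnpc3 and Matr3 passed (adjusted p = 0.0452, 0.00913 and 0.0154), and with age as covariate Prpf38a (0.0415). Between ages 0 of the genes of these 10 lists passed, 168 entries in all. The smallest p of each list were those of Rbm8a (-0.59, limma adjusted p = 0.220), a core exon junction protein, and Lsm3 (-0.76, 0.233), a ring protein of U6. Next came Smn1 (-0.73, 0.252), whose product loads Sm rings onto RNA, and Cwc27 (0.45, 0.271). Snrnp27 had -0.58 (adjusted p = 0.290), Elavl1 -0.73 (0.299) and U2surp 0.31 (0.362). Snrnp25 (-0.35), Khdrbs1 (-0.42) and Clk2 (-0.20) had an unadjusted p above 0.05. The largest difference between ages in these lists was that of Rnps1, an SR-related protein (-0.99, limma adjusted p = 0.280), whose old and young values overlapped. The median differences between ages ran from -0.20 for the LSm list to 0.016 for the U1 and U2 partners. In the LSm list 8 of 9 genes had negative differences and 3 had an unadjusted p under 0.05 (10.2% of all genes).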

How the data were processed

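The deposited values are log2 expression values made by the authors with RMA, per the submitters' processing notes, which also name mm9. Per the series' design text, GFP-positive cells were the GFP-high gate, RNA was amplified before labelling, probes were grouped by RefSeq transcript, and 1 array with a skewed distribution was taken out by the authors. The ages are those of the sample titles, and the design text gives young mice a range without the youngest of them. Other steps and versions are not given in the sources used here. Probe sets were named through RefSeq accessions (GRCm38.p6): of 31672, 24586 matched 1 symbol and 7086 none, and the probe set with the highest mean over all samples stood for each of 19961 genes, 3010 of which had several. Differences were tested with limma 3.58.1 in R 4.3.3 (lmFit and eBayes, 1 fit of 3 group means, 7 residual and 4.07 prior degrees of freedom), with Benjamini-Hochberg adjustment over all genes at 0.05. SAM, named in the series text, was not run. The procedure was tested on simulated data, and figures were drawn with matplotlib 3.10.9. Alternatives were other normalizations, filters, weights, covariates, a replicate block and leaving out samples. The fits with age as a covariate or with a replicate block used only the samples of the groups compared. Members and lists were chosen with earlier results of these data known. Genes given in every sample were those past a test or with the largest differences per family and direction. The number of arrays limits the precision, and scan batches were not given in the labels used here.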

Additional observations from a re-analysis of the deposited data

Results flagged for a closer look

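In the 4 old samples, a value was marked where the gap from the highest or lowest sample to its nearest neighbour was a large share of the group's range (Dixon's 95% critical value). This was the case for 3 of 55 values examined, and chance marks about 1 in 20. Hnrnpk was 8.393 in old replicate 3, below 8.988 to 9.097 in the other old samples. Sf3b2 was 8.588 in old replicate 2, below 8.771 to 8.801 in the others. The median of the Snrp genes, after subtracting each gene's mean, was -0.009573 in old replicate 4, above -0.3973 to -0.3528 in the others.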

How the results depend on the processing

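Of 1328 values under alternatives, 1211 kept direction and side of the threshold, 71 lost a call, 17 gained one and 29 changed sign, and the cause was not tested. With the mean of all probe sets, the count of all genes past the test between ages was 5. After repeated quantile normalization, the count of members lower between fractions was 1, the median of members between fractions was -0.065, the median of Hnrnp genes between fractions was -0.070 and the median of Sf3 genes between fractions was -0.16. There, too, the count of all genes past the test between ages was 0, the median of members between ages was -0.061 and the median of Hnrnp genes between ages was 0.032. With array weights, the count of all genes past the test between fractions was 5737, the count of members lower between fractions was 7, the median of Sf3 genes between fractions was -0.14 and Snrpb between fractions was -0.013. There, too, the count of all genes past the test between ages was 20, Snrpb2 between ages was -0.012 and Sf3b2 between ages was -0.017. With trend and robust eBayes, the count of all genes past the test between ages was 0. With only the groups compared, the count of all genes past the test between ages was 0. With the replicate block, the count of all genes past the test between ages was 0, Snrpb2 between ages was -0.20 and Sf3b3 between ages was -0.0031. With age as a covariate, in a fit of the young groups only, the count of members lower between fractions was 5. Without both young replicate 1 samples, the count of all genes past the test between fractions was 1841, the count of members lower between fractions was 0, the median of Srsf genes between fractions was -0.16 and the median of Sf3 genes between fractions was -0.16. There, too, Srsf11 between fractions was -0.019, Snrpg between fractions was 0.067, Sf3b5 between fractions was 0.045 and the count of all genes past the test between ages was 5. There, too, Srsf5 between ages was -0.049, Hnrnpul1 between ages was -0.027, Snrpb2 between ages was -0.067 and Sf3b3 between ages was -0.15. After cyclic loess, an alternative added after the data were seen, the median of members between fractions was -0.085, the median of Hnrnp genes between fractions was -0.085, Sf3b4 between fractions was -0.0030 and the count of all genes past the test between ages was 0. There, too, the median of Hnrnp genes between ages was 0.026 and Hnrnpa0 between ages was -0.0014. Leaving out each sample in turn gave 0 to 9 for the count of all genes past the test between ages, -0.049 to 0.090 for Srsf5 between ages, -0.24 to -0.015 for the median of Sf3 genes between ages and -0.20 to 0.25 for Snrpb2 between ages. It also gave -0.15 to 0.13 for Sf3b3 between ages, 0 to 4 for the count of members lower between fractions, -0.014 to 0.18 for Srsf11 between fractions and -0.39 to 0.012 for Snrpg between fractions. It also gave -0.027 to 0.29 for Hnrnpul1 between ages, -0.12 to 0.22 for Snrpc between fractions, -0.43 to 0.052 for Sf3b5 between ages and -0.027 to 0.091 for Snrpb between fractions. It also gave -0.18 to -0.079 for the median of Srsf genes between ages, -0.045 to 0.25 for Sf3b2 between ages and -0.0017 to 0.15 for Sf3b4 between fractions. Whether samples of the same replicate number came from the same mice is not given in the labels used here. Between fractions, deviations correlated at 0.12 for replicate 1 (both 7 months) and 0.19 for replicate 3 (both 4 months). These values lay above those of all pairs of unlike number (-0.18 to 0.078). For replicate 2 (5 and 7 months) the value was 0.021, and young GFP-positive replicate 2 correlated best with GFP-negative replicate 1 (0.078). Between ages same-numbered samples correlated at -0.018, -0.067 and 0.22. The main fit did not pair samples. The block was fitted with only the groups compared, so that the old samples were left out between fractions. There 2825 genes passed, 3 members among them. The like fit without a block gave 3065 and 3, and the main fit 3390 and 3. Between ages the block also drops old replicate 4. Under the block the calls of Dhx35, Luc7l3 and Rbm22 between fractions were lost (limma, adjusted p = 0.0896, 0.0798 and 0.0556). Those of Luc7l3 and Rbm22 were also lost with only the young groups in the fit and no block. Between ages the calls of Atf3, Svbp and Prmt1 were lost. Mbnl1 and Elavl3 were not refitted with the block, and it changed no other call of a named gene.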
